A study of Mus musculus with 6 samples.

Results

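The genes described here encode the matrix metalloproteinases (MMPs), the ADAM and ADAMTS proteases and the tissue inhibitors of metalloproteinases (TIMPs) in infarcted mouse hearts. They were taken by name, as every protein-coding gene of the deposited table whose symbol is *Mmp*, *Adam*, *Adamts* or *Timp* followed by a number and at most 1 letter. This gave 78 of the 54532 genes listed, namely 22 MMPs, 33 ADAMs, 19 ADAMTS and 4 TIMPs. A gene was tested where 3 or more libraries held 10 or more sequenced fragments each, with no fewer than 15 in all. That held for 52 of the 78, while 10 had fewer and 16 had no fragment in any library.

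RNA sequencing was performed on heart tissue of 3 WT mice and 3 *Crlf2*-/- mice, which lack the receptor for thymic stromal lymphopoietin (TSLP), on day 7 after myocardial infarction (MI). The study's results describe this tissue as infarct and peri-infarct, and its methods as infarcted hearts. How much of each part was taken is not given, and hearts stands for this tissue below. All 6 mice, adult males of strain C57BL/6 in the labels and C57BL/6J in the study's methods, had the left anterior descending coronary artery ligated permanently. The comparison addresses how loss of TSLP receptor signaling alters gene expression in the infarcted heart, and no sham-operated or uninjured heart was among the libraries. Expression is given as FPKM, fragments per kilobase of gene length scaled to sequencing depth, rescaled between libraries by multipliers between 0.991 and 1.007. The WT mice were bought from one supplier and the knockout was made by another, so supplier and genotype cannot be told apart. No cell-type-specific driver is named for the deletion. Each library held between 18508646 and 19682428 fragments assigned to genes. *Crlf2* itself had 917, 813 and 707 fragments in the WT libraries and 437, 651 and 667 in the *Crlf2*-/- libraries, which is lower in each knockout library but far from absent. The deleted exons are not given in the sources used here, so these counts do not check the knockout. The extraction protocol in the labels speaks of retinas. All 10 cardiomyocyte markers were abundant enough to be tested and summed to between 657 and 1867 FPKM per library, while 8 retina markers summed to at most 0.196 FPKM, with *Rcvrn*, *Crx* and *Nrl* at 0.

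MMPs are zinc-dependent enzymes that cut collagens, elastin and other matrix proteins, and most are secreted as inactive precursors that other proteases must cleave. ADAMs are mostly membrane-bound and release the outer parts of cell surface proteins such as cytokines, growth factors and their receptors, whereas ADAMTS proteases are secreted and process procollagens and proteoglycans. TIMPs block the active site of these enzymes. After infarction, dead myocardium is removed and replaced by a collagen scar, and MMPs from infiltrating leukocytes and from fibroblasts are known to take part in both steps.

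Several MMP genes stand side by side on mouse chromosome 9, and their promoters are a textbook case of control by AP-1, the dimer of Fos and Jun proteins. The sequence just upstream of the RefSeq start site is shown for *Mmp3*, the gene of the family with the smallest p-value below, and for 4 neighbours in the same cluster. Each line is 110 bases of the plus strand (GRCm38.p6), and capitals mark the AP-1 letters TGANTCA, searched on both strands.
*Mmp3*, chr9:7445712-7445821: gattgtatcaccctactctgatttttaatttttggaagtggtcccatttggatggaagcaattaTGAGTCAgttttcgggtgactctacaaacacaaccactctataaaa
*Mmp10*, chr9:7502232-7502341: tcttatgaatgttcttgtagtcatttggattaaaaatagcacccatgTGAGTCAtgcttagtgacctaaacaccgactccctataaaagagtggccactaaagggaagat
*Mmp12*, chr9:7347264-7347373: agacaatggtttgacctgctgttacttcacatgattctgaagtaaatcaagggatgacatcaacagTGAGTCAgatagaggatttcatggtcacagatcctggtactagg
*Mmp13*, chr9:7272404-7272513: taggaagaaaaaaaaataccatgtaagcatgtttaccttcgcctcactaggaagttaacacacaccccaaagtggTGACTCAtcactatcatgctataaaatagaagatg
*Mmp8*, chr9:7558319-7558428: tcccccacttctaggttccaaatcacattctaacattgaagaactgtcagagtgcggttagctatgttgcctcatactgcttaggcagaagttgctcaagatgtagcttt

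The first AP-1 letter lay 46 bases upstream of the start site in *Mmp3* (position -46), at -63 in *Mmp10*, at -44 in *Mmp12* and at -35 in *Mmp13*, and the *Mmp8* window held no such letters. For *Mmp12* RefSeq gives 2 start sites. The one shown was picked because its window holds the AP-1 letters, which the other window lacks. It lies inside the gene as the deposited table bounds it. Over windows from 250 bases before to 50 after the start site, TGANTCA was found in 8.97% of 27025 genes with a RefSeq window. It was found in 12 of the 48 protease and TIMP genes that have a window (25%), and in 8 of 10 genes of the chromosome 9 cluster. Outside the cluster it was found in 5 of 39 (12.82%). The letters TATAAA, those of the TATA box, were found anywhere in the window in 9 of 10 cluster genes beside 15.67% of all genes. Their first base lay at -29 in *Mmp10*, at -7 in *Mmp3* and at 5, past the start site, in *Mmp12*. Whether these letters act as a TATA box was not tested.

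A handful of genes made up most of the protease and inhibitor RNA in these hearts. *Mmp2*, *Timp2*, *Timp1* and *Mmp14* each had a mean over the 6 libraries of at least 100 FPKM, 18 genes had at least 10 FPKM and 38 at least 1 FPKM. *Mmp2* (chromosome 8, from 92827291 to 92853420), which encodes gelatinase A, ranked first, with a WT mean of 304 ± 43.7 FPKM and a *Crlf2*-/- mean of 301 ± 16.2 FPKM (SD, n = 3). *Mmp2* and *Mmp14*, whose membrane-bound product activates the *Mmp2* precursor with the help of *Timp2*, together carried 82.3 ± 2.25% of the summed MMP FPKM in WT and 83.5 ± 0.766% in *Crlf2*-/- hearts (SD, n = 3). Among the ADAMTS genes *Adamts2*, which trims procollagen, ranked first, and among the ADAMs *Adam9* and *Adam10* did. FPKM is per length, so these levels may be compared between genes.

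**Figure D1:**
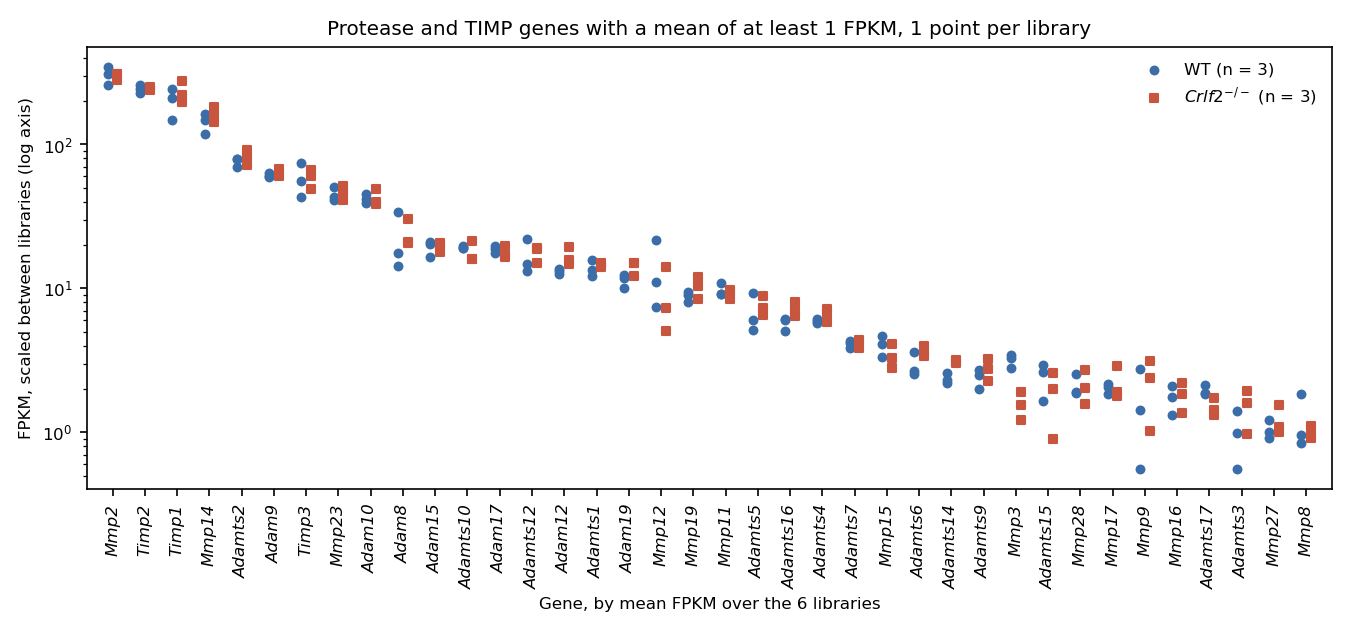
FPKM, rescaled between libraries, on a log axis for the 38 genes with a mean of at least 1 FPKM, ordered by their mean over the 6 libraries, with 1 point per library (circles WT, squares *Crlf2*-/-, n = 3 each). The 2 groups overlap for the leading genes, and *Mmp3* is the gene in which the *Crlf2*-/- points lie furthest below the WT points without overlap.

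At the low end, 16 of the 78 genes had no fragment in any of the 6 libraries. By counting error alone, no fragment in a single library allows up to about 3, and none in all 6 allows fewer per library. Of the 16 genes 13 were ADAMs, many of them known from testis and sperm, and 3 were MMPs, the collagenase gene *Mmp1b*, the enamel protease gene *Mmp20* and *Mmp21*. The 10 genes with a few fragments, among them *Mmp10* (stromelysin 2), *Mmp7* (matrilysin) and *Adamts13*, which cleaves von Willebrand factor in blood, had at most 13 fragments in any library. At this depth no comparison was made for these 26 genes.

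With *Crlf2*-/- compared with WT, 0 of the 52 genes tested were called, which required an adjusted p of 0.05 or less and a log2 difference of 0.5 or more in either direction. The test was limma on the log2 scale with 0.1 added to each FPKM, and the Benjamini-Hochberg adjustment ran over all 15520 genes tested. Over all genes 2 were called, or 0.0129%. The study's own test of the same libraries, DESeq2, called more genes at these thresholds, so the number called depends on the method. The smallest adjusted p in the family was 0.162, for *Mmp3*, and the next was 0.514, for *Adamts14*. At an unadjusted p under 0.05, 4 genes were higher in *Crlf2*-/- hearts (*Adam12*, *Adamts14*, *Adamts16* and *Mmp24*; background 3.22% of all genes tested) and 3 were lower (*Mmp3*, *Adamts17* and *Timp4*; background 3.36%). These 7 are 13.5% of the 52, beside 6.58% of all genes tested. *Mmp24* reached the filter of 10 fragments only through the group in which it is higher, and *Timp4* mainly so. Their places in these counts are therefore partly set by the filter. With 10 fragments required in every library, 5 of 47 genes had an unadjusted p under 0.05, beside 6.5% of all genes tested. In place of the 7 of 52, there were 2 of 50 without *Crlf2*-/- replicate 1, beside 6.72% of all genes tested. There were 4 of 51 without *Crlf2*-/- replicate 2 (5.41% of all genes) and 12 of 51 without *Crlf2*-/- replicate 3 (7.07%). The 3 libraries of one group lay wholly above or below the other in 9 genes, 6 higher (background 5.37%) and 3 lower (background 6.37%), and the 6 were the 4 named above with *Adam1a* and *Adamts20*. *Adam1a*, like *Timp4*, reached the filter mainly through the group in which it is higher.

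Across the 52 genes the differences were small. The median log2 fold change was 0.06, beside -0.0042 over all genes tested. The sign was positive in 36 genes and negative in 16, so 69.2% were positive beside 49.1% of all genes tested. Only 8 genes, 4 in each direction, differed by at least 0.5 on the log2 scale, and 7 of these 8 averaged under 3 FPKM, the exception being *Mmp12*. Genes of the family share cell types and are not independent of each other, so these counts describe the list and were not tested. Whether fewer cells of a type or less RNA per cell lies behind a lower level cannot be told apart in bulk tissue.

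**Figure D2:**
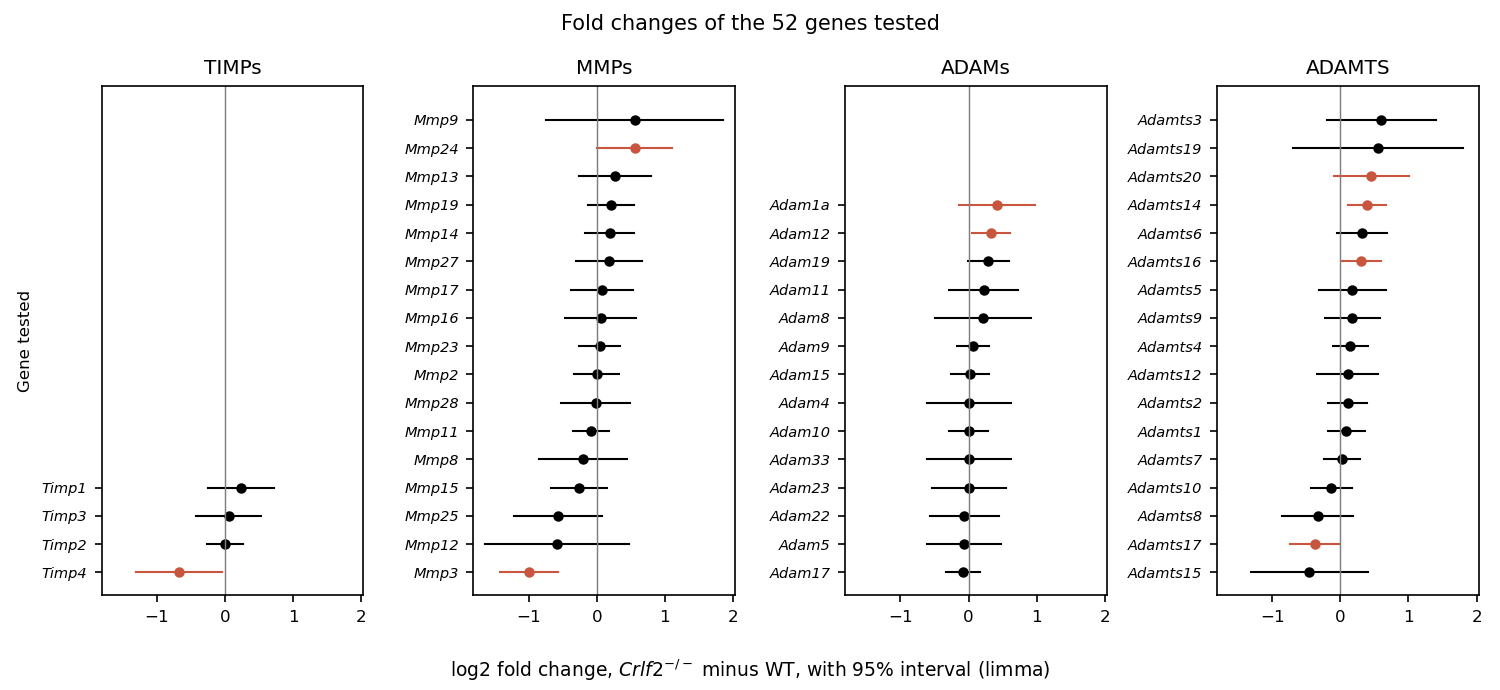
Log2 fold change (*Crlf2*-/- minus WT) with its 95% interval from limma for the 52 genes tested, by family. Points in red are the 9 genes whose groups do not overlap, and *Mmp3* is the gene with the largest distance between its interval and 0.

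The TIMPs, the inhibitors, were present at similar levels in both groups, apart from the barely detected *Timp4*. *Timp1* (chromosome X, from 20870166 to 20874735), a secreted inhibitor also known as a growth factor for some cells, had 242, 211 and 147 FPKM in the WT libraries and 222, 277 and 198 FPKM in the *Crlf2*-/- libraries. *Timp2* (chromosome 11, from 118301069 to 118355740) had 229.6, 244 and 259.8 FPKM in WT and 249.8, 237 and 246 FPKM in *Crlf2*-/- libraries. *Timp3* (chromosome 10, from 86300372 to 86349506), which binds to the matrix and also inhibits ADAM17, had 43.1, 55.6 and 74.0 FPKM in WT and 60.8, 48.8 and 66.6 FPKM in *Crlf2*-/- libraries. The groups overlapped in each of these genes. The log2 fold changes were 0.23 (95% interval from -0.25 to 0.71) for *Timp1*, 0.00070 (from -0.26 to 0.26) for *Timp2* and 0.05 (from -0.42 to 0.53) for *Timp3*, with adjusted p-values of at least 0.963 (limma). The value of *Timp1* was 0.024 without WT replicate 3, its lowest library, and 0.38 without WT replicate 1. *Timp3* shares 1733 exonic bases with *Syn3* on the opposite strand, and whether counting used strand is not given in the sources used here.

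*Timp4* (chromosome 6, from 115241892 to 115252205) is known as the TIMP of the healthy heart. Here 17, 12 and 11 fragments were counted in the 3 WT hearts against 0, 2 and 10 in the 3 *Crlf2*-/- hearts, or 0.101 ± 0.0217 FPKM and 0.0300 ± 0.0401 FPKM (SD, n = 3). The *Crlf2*-/- libraries all lay below the WT libraries, but by a single fragment for *Crlf2*-/- replicate 3. The log2 fold change was -0.67 (standard error 0.28, unadjusted p = 0.0405, adjusted p = 0.723, limma) and moved between -2.56 and -0.097 over the settings tried, so its size is not determined at this depth. *Timp4* lies within *Syn2* on the opposite strand and shares 90 exonic bases with it. The 10 cardiomyocyte markers also ran lower, at 978 to 1867 FPKM in WT and 657 to 1281 FPKM in *Crlf2*-/- libraries, and their part in the *Timp4* values was not tested.

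Summed over the 4 TIMPs, the level was 514.9, 511 and 481 FPKM in WT and 532, 563 and 511 FPKM in *Crlf2*-/- libraries. The MMPs summed to 508, 604 and 513 FPKM in WT and to 537, 585 and 543 FPKM in *Crlf2*-/- libraries. The ratio of TIMP to MMP FPKM was 0.932 ± 0.0839 in WT and 0.965 ± 0.0254 in *Crlf2*-/- hearts (SD, n = 3), a difference smaller than the spread between the WT libraries.

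Among the gelatinases, which cut denatured collagen and basement membrane collagen, *Mmp2* had 258, 345 and 309 FPKM in WT and 283, 311 and 310.2 FPKM in *Crlf2*-/- libraries. The *Crlf2*-/- values lay inside the WT range, and the log2 fold change was -0.0029 (95% interval from -0.33 to 0.32). *Mmp9* (chromosome 2, from 164940780 to 164955850), gelatinase B of neutrophil granules and macrophages, varied most within a group among the MMPs tested. It had 2.76, 0.556 and 1.42 FPKM in WT and 3.15, 2.40 and 1.02 FPKM in *Crlf2*-/- libraries, a 4.96-fold range among the WT hearts. Its log2 fold change of 0.56 (95% interval from -0.74 to 1.86, adjusted p = 0.977, limma) was 0.0028 without WT replicate 2 and 1.06 without WT replicate 1.

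*Mmp3* (chromosome 9, from 7445822 to 7455975), stromelysin 1, cuts proteoglycans, fibronectin and laminin and activates precursors of other MMPs, and its promoter is printed above. It had 3.45, 3.30 and 2.79 FPKM in WT and 1.56, 1.92 and 1.21 FPKM in *Crlf2*-/- libraries, from 142, 130 and 110 fragments and 62, 81 and 49 fragments. The highest *Crlf2*-/- library was below the lowest WT library, and the *Crlf2*-/- mean was 0.492 times the WT mean. The log2 fold change was -0.996 (standard error 0.19, 95% interval from -1.42 to -0.57, unadjusted p = 0.00064, limma), which ranked 61 by p among the 15520 genes tested and gave an adjusted p of 0.162. An exact permutation test on the 6 libraries gave p = 0.1 (two-sided), the smallest that 3 against 3 allow. In the 15 alternative settings the unadjusted p stayed under 0.05 and the log2 fold change lay between -1.14 and -0.71, while the adjusted p lay between 0.144 and 0.564.

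The other stromelysin tested, *Mmp11*, which furin activates before secretion, had 9.78 ± 0.993 FPKM in WT and 9.19 ± 0.681 FPKM in *Crlf2*-/- hearts (SD, n = 3). *Mmp10*, stromelysin 2, was not tested, with 8, 5 and 1 fragments in the WT hearts against 10, 8 and 9 in the *Crlf2*-/- hearts.

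*Mmp3* was the only tested gene of the chromosome 9 cluster with an unadjusted p under 0.05 in the fit without a replicate block. The cluster holds 10 MMP genes over 427 kb, from *Mmp13* at 7272514 to the end of *Mmp7* at 7699585. One of them, *Mmp1a*, is annotated as a polymorphic pseudogene and falls outside the naming rule. 5 of the 10 were tested, and 3 had no fragment. *Mmp12*, macrophage elastase, had 21.8, 11.02 and 7.39 FPKM in WT and 14.2, 5.10 and 7.33 FPKM in *Crlf2*-/- libraries. Its log2 fold change was -0.58 (95% interval from -1.64 to 0.48, adjusted p = 0.948, limma), with values from -0.98 without *Crlf2*-/- replicate 1 to -0.16 without WT replicate 1. The groups overlapped through *Crlf2*-/- replicate 1 alone, and replicate 1 was the highest library in both groups. The collagenases *Mmp8* of neutrophils and *Mmp13*, which open the collagen triple helix, had 1.22 ± 0.553 and 0.878 ± 0.254 FPKM in WT and 0.996 ± 0.0954 and 1.05 ± 0.0180 FPKM in *Crlf2*-/- hearts (SD, n = 3). *Mmp27* had 1.05 ± 0.161 FPKM in WT and 1.21 ± 0.287 FPKM in *Crlf2*-/- hearts. *Mmp12* and *Mmp1b* share 157 exonic bases on opposite strands.

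**Figure D3:**
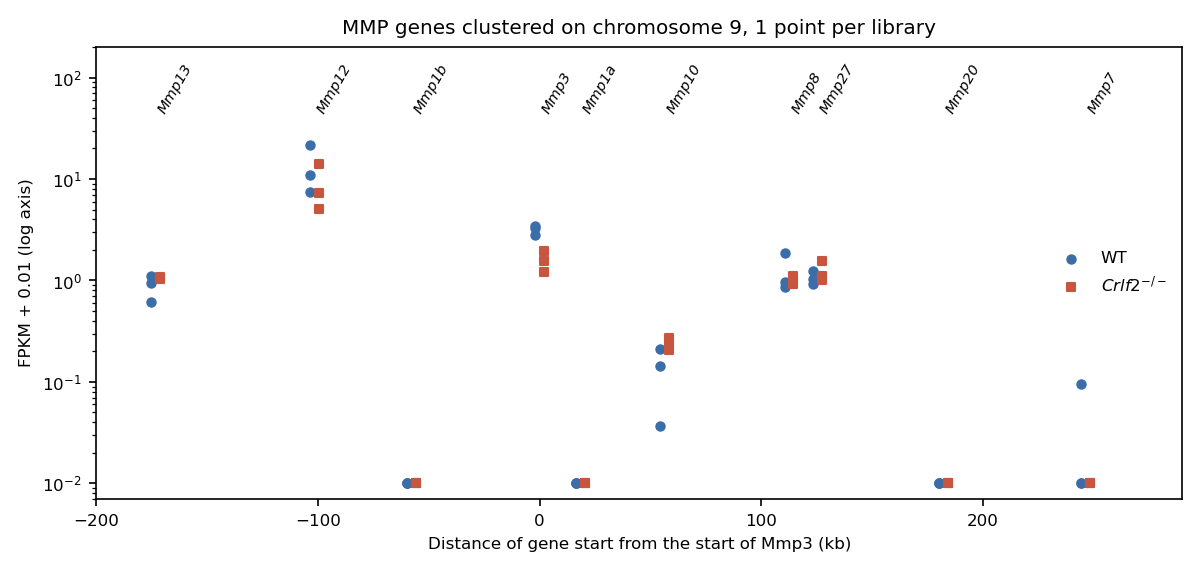
FPKM + 0.01 on a log axis for the 10 MMP genes of the chromosome 9 cluster, placed by the distance of each gene's start from that of *Mmp3* in kb, with 1 point per library (circles WT, squares *Crlf2*-/-, n = 3 each). The *Crlf2*-/- points lie below the WT points for *Mmp3* and overlap them for *Mmp13*, *Mmp12*, *Mmp8* and *Mmp27*, and points at 0.01 stand for no fragment.

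The membrane-type MMPs are held at the cell surface. *Mmp14* (chromosome 14, from 54431612 to 54445364) had 148, 163 and 118 FPKM in WT and 161, 181 and 144 FPKM in *Crlf2*-/- libraries, with a log2 fold change of 0.19 (95% interval from -0.17 to 0.55, adjusted p = 0.953, limma). The groups overlapped. *Mmp25* (chromosome 17, from 23628311 to 23645277), the leukocyte enzyme leukolysin, had 0.239, 0.371 and 0.474 FPKM in WT and 0.196, 0.145 and 0.285 FPKM in *Crlf2*-/- libraries (log2 fold change -0.57, unadjusted p = 0.0773, adjusted p = 0.82, limma). *Mmp24* (chromosome 2, from 155775342 to 155818366), known mainly from nervous tissue, was counted at 4, 8 and 4 fragments in the WT hearts against 10, 12 and 17 in the *Crlf2*-/- hearts. It was tested only because the *Crlf2*-/- libraries reached 10 fragments. The fitted log2 fold change was 0.55 (unadjusted p = 0.0483, adjusted p = 0.754, limma). Its size is not determined at this depth, since it lay between 0.094 with a pseudocount of 1 and 1.22 with voom, and *Mmp24* shares 637 exonic bases with *BC029722* on the opposite strand. The remaining membrane-type genes *Mmp15*, *Mmp16* and *Mmp17* had log2 fold changes of -0.26, 0.06 and 0.08, with means between 1.73 and 4.04 FPKM.

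Of the MMPs outside these classes, *Mmp23* (chromosome 4, from 155650655 to 155653384), anchored in the membrane by its amino end, had 41.1, 50.9 and 42.8 FPKM in WT and 41.4, 51.7 and 45.8 FPKM in *Crlf2*-/- libraries. Its log2 fold change was 0.04 (95% interval from -0.26 to 0.34), and the groups covered nearly the same range. *Mmp19* and *Mmp28* had log2 fold changes of 0.21 and -0.018.

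Among the ADAMs that release cell surface proteins, 8 of 9 were tested, 7 of them with a positive sign, and 1, *Adam12*, had an unadjusted p under 0.05. *Adam12* (chromosome 7, from 133883199 to 134232146), known from regenerating muscle and activated fibroblasts and for release of HB-EGF, had 12.6, 13.7 and 13.2 FPKM in WT and 19.5, 15.7 and 14.8 FPKM in *Crlf2*-/- libraries. The lowest *Crlf2*-/- library exceeded the highest WT library (exact permutation test, p = 0.1, the smallest possible). The log2 fold change was 0.33 (standard error 0.12, 95% interval from 0.04 to 0.61, adjusted p = 0.656, limma) and the WT values were within 1.09-fold of each other. It was 0.21 without *Crlf2*-/- replicate 1, the highest library. *Adam19*, which processes neuregulin and is needed for heart valve development, had 11.5 ± 1.24 FPKM in WT and 14.1 ± 1.62 FPKM in *Crlf2*-/- hearts (SD, n = 3), with a log2 fold change of 0.29 (unadjusted p = 0.0516, adjusted p = 0.765, limma).

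The best known sheddases, ADAM10 and ADAM17, differed little between the groups. *Adam10* (chromosome 9, from 70678997 to 70780229), which cuts Notch and cadherins, had 41.8, 39.4 and 45.2 FPKM in WT and 48.9, 39.8 and 38.7 FPKM in *Crlf2*-/- libraries, with a log2 fold change of 0.0048 (95% interval from -0.28 to 0.29). *Adam17* (chromosome 12, from 21323509 to 21373632), the enzyme that releases tumor necrosis factor, had 19.6, 17.7 and 18.9 FPKM in WT and 19.8, 16.5 and 17.1 FPKM in *Crlf2*-/- libraries, with a log2 fold change of -0.08 (from -0.33 to 0.17). In both genes the groups overlapped, and *Adam17* shares 311 exonic bases with *Iah1* on the opposite strand.

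*Adam9* (chromosome 8, from 24949611 to 25016927) had 60.2, 59.5 and 62.9 FPKM in WT and 67.5, 63.0 and 60.2 FPKM in *Crlf2*-/- libraries, and the groups overlapped (log2 fold change 0.06). *Adam15* (chromosome 3, from 89338542 to 89349996), known for binding integrins, had 20.4, 20.9 and 16.5 FPKM in WT and 17.9, 20.8 and 19.7 FPKM in *Crlf2*-/- libraries (log2 fold change 0.02). An antisense transcript shares 1263 exonic bases with *Adam15*. *Adam8* (chromosome 7, from 139978932 to 139992562), an ADAM of neutrophils and macrophages, had 33.9, 17.6 and 14.4 FPKM in WT and 30.5, 21.1 and 20.7 FPKM in *Crlf2*-/- libraries. As with *Mmp12*, replicate 1 was the highest library in each group, and the log2 fold change of 0.21 (95% interval from -0.49 to 0.92) was 0.57 without WT replicate 1 and -0.042 without WT replicate 3. The neural ADAMs *Adam11*, *Adam22* and *Adam23*, which lack a working protease site, averaged at most 0.671 FPKM in either group. Of the 21 other ADAMs 3 were tested. One of these, *Adam1a*, had all *Crlf2*-/- libraries above WT at 7 to 22 fragments, and it shares exons with *Mapkapk5* on the same strand, so its reads are uncertain.

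Among the ADAMTS genes the procollagen N-proteinases, which remove the amino propeptide so that collagen can form fibrils, all had a positive sign. *Adamts2* (chromosome 11, from 50602084 to 50807573) had 69.7, 78.7 and 79.1 FPKM in WT and 82.4, 72.1 and 90.9 FPKM in *Crlf2*-/- libraries, with overlapping groups and a log2 fold change of 0.11 (95% interval from -0.18 to 0.40). *Adamts14* (chromosome 10, from 61197112 to 61273438) had 2.21, 2.57 and 2.32 FPKM in WT and 3.12, 3.02 and 3.20 FPKM in *Crlf2*-/- libraries. The groups were apart, with the *Crlf2*-/- mean at 1.32 times the WT mean. The log2 fold change was 0.38 (standard error 0.12, 95% interval from 0.11 to 0.66, unadjusted p = 0.013, adjusted p = 0.514, limma). The unadjusted p stayed under 0.05 in all 15 alternative settings, with a log2 fold change between 0.29 and 0.44. *Adamts3* (chromosome 5, from 89677087 to 89883334), which also activates the lymphatic growth factor VEGF-C, had 0.556, 1.42 and 0.992 FPKM in WT and 1.95, 1.60 and 0.975 FPKM in *Crlf2*-/- libraries. Its log2 fold change of 0.60 (95% interval from -0.20 to 1.40, adjusted p = 0.867, limma) came with overlapping groups, and was 0.27 without WT replicate 1 and 0.88 without WT replicate 2.

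Of the 7 ADAMTS genes that cut versican and aggrecan, 0 had an unadjusted p under 0.05. *Adamts1* was the highest at 13.8 ± 1.79 FPKM in WT and 14.6 ± 0.513 FPKM in *Crlf2*-/- hearts (SD, n = 3). The log2 fold changes of *Adamts1*, *Adamts4*, *Adamts5* and *Adamts9* were 0.09, 0.15, 0.18 and 0.18, those of *Adamts8* and *Adamts15* were -0.33 and -0.45, and that of *Adamts20*, whose groups did not overlap at 26 to 71 fragments, was 0.45. The 2 enzymes known to cut cartilage oligomeric matrix protein (COMP) are *Adamts7* and *Adamts12*. *Adamts12* (chromosome 15, from 11064790 to 11349231) had 13.3, 14.7 and 22.1 FPKM in WT and 19.2, 15.1 and 18.7 FPKM in *Crlf2*-/- libraries (log2 fold change 0.11), and *Adamts7* had a log2 fold change of 0.02.

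The remaining ADAMTS genes went both ways. *Adamts16* (chromosome 13, from 70727802 to 70841811), which cuts fibronectin, had 5.08, 5.99 and 6.15 FPKM in WT and 6.92, 8.06 and 6.43 FPKM in *Crlf2*-/- libraries, all above WT. On the log2 scale it differed by 0.31 (standard error 0.13, unadjusted p = 0.0435, adjusted p = 0.738, limma). *Adamts17* (chromosome 7, from 66839735 to 67153171), linked to fibrillin microfibrils, had 1.85, 1.89 and 2.14 FPKM in WT and 1.32, 1.42 and 1.72 FPKM in *Crlf2*-/- libraries, all below WT. On the log2 scale it differed by -0.38 (standard error 0.16, unadjusted p = 0.0421, adjusted p = 0.729, limma). *Adamts10* (chromosome 17, from 33524204 to 33553782), also linked to fibrillin microfibrils, had 19.0, 19.8 and 19.0 FPKM in WT and 15.98, 16.004 and 21.2 FPKM in *Crlf2*-/- libraries. The groups of *Adamts10* overlapped through *Crlf2*-/- replicate 3 alone (log2 fold change -0.13, and -0.26 without that library). *Adamts19* (chromosome 18, from 58836764 to 59053678) was counted at 8, 23 and 17 fragments in the WT hearts against 57, 43 and 5 in the *Crlf2*-/- hearts, and its log2 fold change of 0.55 was 1.20 without *Crlf2*-/- replicate 3. *Adamts6* had a log2 fold change of 0.32. Genes on the opposite strand also share 789 exonic bases with *Mmp19*, 587 with *Adam19*, 489 with *Adamts8* and 1381 with *Adamts9*.

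**Figure D4:**
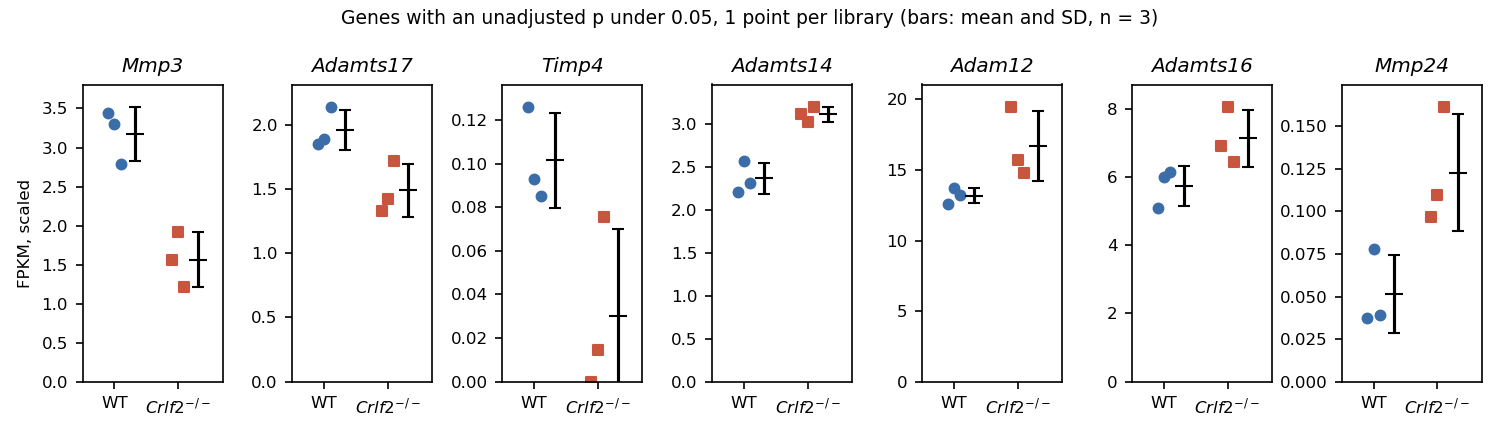
FPKM, rescaled between libraries, in each library for the 7 genes with an unadjusted p under 0.05, with the mean and SD beside the points (circles WT, squares *Crlf2*-/-, n = 3 each, and each panel has its own axis from 0, at which the lower bar of *Timp4* is cut). The groups are apart in every panel, and *Mmp3* is at 0.492 times the WT mean while *Adamts14*, *Adam12* and *Adamts16* are at 1.24 to 1.32 times.

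Genes that act with these proteases, from lists of activators, inhibitors and substrates, were also compared. Of 77 tested, 0 passed the adjusted threshold, and 4 were higher and 3 lower at an unadjusted p under 0.05, beside the 3.22% and 3.36% of all genes tested given above. These 7 became 3 without WT replicate 1, 4 without WT replicate 2 and 4 without *Crlf2*-/- replicate 2. No difference at that level was seen among 18 protease regulators such as *Furin*, *Reck* and the iRhom genes, nor among 8 genes of plasminogen activation, the route by which plasmin activates MMP precursors. Of 15 matrix substrates 2 were higher and 1 was lower at that level, of 15 substrates shed by ADAMs 1 was higher, of 11 ADAMTS-like and tolloid genes 1 was higher and 1 lower, and of 10 cathepsin and cystatin C genes 1 was lower. Of the matrix substrates, *Eln*, which encodes elastin, had 327 ± 20.2 FPKM in WT and 217 ± 39.3 FPKM in *Crlf2*-/- hearts (SD, n = 3; log2 fold change -0.60, adjusted p = 0.331, limma). *Vcan*, the substrate versican, and *Tnc*, tenascin C of healing wounds, had log2 fold changes of 0.33 and 0.62 (adjusted p-values 0.756 and 0.652). That of *Vcan* was 0.17 without *Crlf2*-/- replicate 1, its highest library. *Nrg1*, a growth factor released by ADAMs and made by endothelium for cardiomyocytes, had 1.31 ± 0.267 FPKM in WT and 2.23 ± 0.242 FPKM in *Crlf2*-/- hearts (log2 fold change 0.74, adjusted p = 0.331). *Bmp1*, which removes the carboxyl propeptide of procollagen, had a log2 fold change of 0.29, *Adamtsl2* one of -0.53 and the cathepsin inhibitor *Cst3* one of -0.38, with adjusted p-values between 0.618 and 0.709 (limma).

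Markers of the cell types that make these enzymes also differed between the libraries. The 10 cardiomyocyte markers were all lower in *Crlf2*-/- hearts, with a median log2 fold change of -0.72 and sums between 978 and 1867 FPKM in WT and between 657 and 1281 FPKM in *Crlf2*-/- libraries. The 9 fibroblast markers had a median of -0.17, with 6 of the 9 lower, but sums of 4124 to 4953 FPKM in WT and 4987 to 5120.04 FPKM in *Crlf2*-/- libraries. The 4 smooth muscle markers summed to 521 to 654 FPKM in WT and to 683 to 756 FPKM in *Crlf2*-/- libraries. Their median was 0.35, 1 of the 4 was lower, and 1 was higher at an unadjusted p under 0.05. No marker of these lists was at 0. The sums of the 10 macrophage markers overlapped at 2494 to 4475 FPKM in WT and 3002 to 3636 FPKM in *Crlf2*-/- libraries. Only 1 of the 10 had a negative log2 fold change, the median was 0.11, and 1 was higher at an unadjusted p under 0.05. The sums of the 11 neutrophil markers overlapped at 15.8 to 27.3 FPKM and 17.9 to 23.1 FPKM. Of these 11, 6 were tested, with a median of 0.27 and 2 negative signs. WT replicate 1 had the highest macrophage and neutrophil sums, and the highest *Adam8*, *Mmp12* and *Mmp8*. Other leukocyte genes did not follow these sums. *Mmp9* was highest in *Crlf2*-/- replicate 1, at 3.15 FPKM beside 2.76 FPKM in WT replicate 1. *Mmp25* was lower in WT replicate 1 (0.239 FPKM) than in WT replicates 2 and 3 (0.371 and 0.474 FPKM). The 6 T cell markers were lower in all 6 cases (median -1.12), at 6.10 to 10.3 FPKM in WT and 3.41 to 4.18 FPKM in *Crlf2*-/- libraries, and the red blood cell markers summed to 226 to 366 FPKM and 85.4 to 161 FPKM. The 6 endothelial markers summed to 120.01 to 142 FPKM in WT and 111 to 120.2 FPKM in *Crlf2*-/- libraries. The part of these differences in the values of *Mmp3*, *Timp4* and the other genes was not tested.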

How the data were processed

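Heart RNA of 3 WT and 3 *Crlf2*-/- mice was sequenced by the study. The authors trimmed reads, aligned them with HISAT2 2.0.5, counted fragments with featureCounts and deposited FPKM per gene. The submitters' processing notes name mm10 and hg38. Whether counting used strand is not given in the sources used here.

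The deposited FPKM times gene length were whole multiples of 1 fragment (tolerance 0.1) for 100% of nonzero values, and depth was taken from them. FPKM were rescaled by the trimmed mean of M values. limma 3.58.1 in R 4.3.3 (trend and robust) was fitted to log2 FPKM after adding 0.1, a scale that understates changes of low genes, with 0 covariates. The filter on low genes asked for 10 or more fragments in 3 or more libraries and 15 or more overall. p-values were adjusted over all 15520 genes tested. The fit was tested on simulated data. Values were printed for the TIMPs, the 15 highest genes, and those with an unadjusted p under 0.05 or a log2 difference of 0.5 or more either way. Other genes were given by group. The members and gene lists were chosen with earlier results of these data known. Alternatives were 2 other scalings, a fit without haemoglobin and mitochondrial genes, 2 filters, 2 pseudocounts, voom, a replicate block and leaving out each library. Promoters came from RefSeq windows on GRCm38.p6, which 48 of 78 genes matched. The table held 0 columns of other samples. That the mice were separate animals follows from the study's methods.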

Additional observations from a re-analysis of the deposited data

How the results depend on the processing

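The number of genes called was 0 in the main fit and in all 15 alternatives, and the median log2 fold change stayed between 0.048 and 0.086. Leaving out each library in turn moved the number with an unadjusted p under 0.05 from 7 to between 2 and 12, the number whose groups did not overlap from 9 to between 10 and 18, and the number of pathway genes from 7 to between 3 and 8. Of all genes tested in these fits, between 4.22% and 7.43% had an unadjusted p under 0.05. With fewer libraries groups separate more easily. Without a library, signs changed for *Adam10* (-0.101 to 0.072), *Adam15* (-0.086 to 0.084), *Adam8* (-0.042 to 0.57), *Adamts12* (-0.039 to 0.33), *Mmp2* (-0.116 to 0.093), *Mmp23* (-0.035 to 0.137), *Timp2* (-0.043 to 0.046) and *Timp3* (-0.139 to 0.25), and with FPKM as deposited for *Timp2* (-0.0029). *Adam12*, *Adamts16* and *Adamts17* kept an unadjusted p under 0.05 in all 9 alternatives that used all libraries, but in only 2, 2 and 1 of the 6 that left one out. *Mmp24* and *Timp4* lost it with a pseudocount of 1, with no filter and with the replicate block, and neither was tested when every library needed 10 fragments. Libraries with the same number correlated at -0.016, 0.115 and 0.120 in their deviations, which gives no pairing of the mice, and with the replicate block 6 genes had an unadjusted p under 0.05, 5 of them among the 7 and the other *Mmp12* (p = 0.0298 from limma with the block, against 0.242 without). For members of at least 10 FPKM the 95% interval, before adjustment, reached a median of 0.30 to either side on the log2 scale. Small differences could therefore be missed with 3 mice a group. The 0.30 is not a limit for calling a gene, since *Mmp3* at -0.996 (adjusted p = 0.162, limma) was not called.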
